A study of Mus musculus with 8 samples.

Results

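The liver turns cholesterol into bile acids through a chain of enzymes, and the levels of 10 of these enzymes were followed here in mouse primary hepatocytes on soft and stiff hydrogels, with and without the transcriptional coactivators YAP and TAZ. The enzymes were found by gene symbol among the 56748 genes of the deposited count table: Cyp27a1, Cyp7b1, Cyp8b1, Hsd3b7, Akr1d1, Slc27a5, Amacr, Acox2, Hsd17b4 and Baat. All 10 were in the table, and 9 of them had enough counts to be tested among 14279 genes. Hsd3b7 did not.

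Hepatocytes came from Yap fl/fl;Taz fl/fl mice of the C57BL/6J background, aged 7 to 8 weeks when virus was given. Wild-type cells were from mice that received AAV8-TBG-Null, and knockout (Yap/Taz HepKO) cells were from mice that received AAV8-TBG-Cre, in which the thyroxine-binding globulin promoter restricts Cre to hepatocytes. All 4 groups therefore carried the floxed alleles and the virus, and other liver cells kept YAP and TAZ by design. Cells were isolated 10 days after the virus and cultured for 24 h on collagen-coated polyacrylamide hydrogels of 1 kPa (soft) or 20 kPa (stiff), and each of the 4 groups has 2 libraries. The sources name both female and male mice for these cells, so the sex is not settled. They do not say whether the 2 libraries of a group came from separate mice or cultures, so the p-values measure only the spread between these libraries, which may be technical.

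Bile acid synthesis starts on the sterol ring in the classic pathway, whose first and rate-limiting enzyme is Cyp7a1, or on the side chain in the acidic pathway, which Cyp27a1 and Cyp7b1 carry. The ring is then oxidised by Hsd3b7 and reduced by Akr1d1, and Cyp8b1 adds the hydroxyl group that separates cholic acid from chenodeoxycholic acid and the muricholic acids made from it in mice. Slc27a5, Amacr, Acox2 and Hsd17b4 activate, turn over and shorten the side chain, largely in peroxisomes, and Baat joins the finished bile acid to taurine or glycine. Bile acids limit their own synthesis through the receptor FXR and the fibroblast growth factor receptor Fgfr4, and Hnf4a and LRH-1 are nuclear receptors long known to act on Cyp7a1 and Cyp8b1.

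The promoter of Cyp8b1 is shown because it was among the enzymes that changed most and its window alone, of those at hand, was clear of annotated exons. The 250 bases before its RefSeq start on GRCm38.p6, chr9:121916306-121916555 on the minus strand, read as follows, with capitals marking a match to CAAAGTCCA, an HNF4 motif, and the LRH-1 motif CAAGGNCA that overlaps its end.

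Cyp8b1: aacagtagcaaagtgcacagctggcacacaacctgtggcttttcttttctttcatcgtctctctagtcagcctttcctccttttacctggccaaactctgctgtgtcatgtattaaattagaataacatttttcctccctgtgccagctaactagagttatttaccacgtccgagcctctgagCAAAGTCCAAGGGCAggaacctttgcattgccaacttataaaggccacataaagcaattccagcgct

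The HNF4 motif began 67 bases and the LRH-1 motif 60 bases before the start. Searched on both strands, the first was in 0.384% and the second in 5.53% of 32851 RefSeq promoter windows of the same length. RefSeq promoters were at hand for 5 of the 10 enzymes (6 starts), and neither motif was in the other windows. Direct repeats of AGGTCA spaced by 1 base (DR1) or by 4 bases (a form LXR binds), an inverted repeat of AGGTCA spaced by 1 base (a form FXR binds) and an inverted repeat of GTTAAT spaced by 1 base (HNF1) were in none of the 6, and in 0.0335%, 0.0152%, 0.00609% and 0.00913% of all windows. The TEAD motif GGAATG, the sequence that YAP and TAZ reach through their DNA-binding partners, was in the Hsd3b7 window and in 12.6% of all windows. Such a match describes the letters only.

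Library totals ranged from 18324083 to 26442310 counts, and a count of 0 allows up to 3 counts, which was 0.113 to 0.164 CPM (counts scaled to the library total, as by the cpm function of edgeR) and covers counting error only. In the targeted-gene check, Yap1 had 1720 to 2913 counts in the wild-type libraries and 606 to 747 in the knockout libraries, and Wwtr1, which encodes TAZ, had 748 to 1325 and 277 to 410. RNA of both genes thus stayed measurable in the knockout libraries. These are counts per whole gene and may include other liver cells, so they do not measure how complete the deletion in hepatocytes was. Hepatocyte markers (9 of 10 in the table, none at 0) summed to 91358 to 94259 CPM in wild-type and 66039 to 66728 CPM in knockout libraries, and most of each sum was Alb (albumin), at 80142 to 85486 and 55433 to 56085 CPM. The 8 endothelial markers, none at 0, summed to 73.2 to 74.6 CPM for wild-type soft, 48.3 to 51.3 for wild-type stiff, 95.1 to 98.3 for knockout soft and 95.7 to 107 for knockout stiff libraries. The 8 Kupffer cell and macrophage markers, none at 0, had the same order of groups, with 79.5 to 82.5, 55.5 to 61.2, 118 to 119 and 120.1 to 122 CPM. The 9 stellate cell and fibroblast markers summed to 32.6 to 33.2, 21.2 to 23.0, 49.3 and 50.7 to 53.1 CPM, with Lrat at 0 in both wild-type stiff libraries. The 7 cholangiocyte markers summed to 561 to 591, 608 to 612, 373 to 374 and 347 to 357 CPM, with Cftr at 0 throughout. Most of each sum was Spp1, at 498 to 532 CPM in wild-type and 285 to 316 CPM in knockout libraries. Krt19 had 1.78 and 2.40 CPM in wild-type soft, 20.5 and 19.7 in wild-type stiff and 0.437 to 0.865 in knockout libraries. From soft to stiff in wild-type cells, 4 of the 5 tested cholangiocyte markers had higher values and 1 a lower value, with a median log2 fold change of 0.056. The marker sums therefore differed between the groups that are compared below, and their part in the results on the enzymes was not tested. In bulk RNA, fewer cells of a type and less RNA per cell cannot be told apart.

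The first question was how a stiff substrate changed the enzymes in wild-type hepatocytes. The changes were uneven along the pathway. Baat and Cyp8b1 lost more than 1 log2 unit, Acox2 and Cyp7b1 lost less, and Slc27a5 and Amacr did not pass the test. A gene was called changed at a Benjamini-Hochberg adjusted p under 0.05 in edgeR's quasi-likelihood test and a log2 fold change beyond 0.5 in either direction. By this rule 4 of 9 tested enzymes were lower on the stiff hydrogel and 0 were higher, against 9.26% of all tested genes called lower. The median log2 fold change of the 9 enzymes was -0.34, beside -0.0087 over all tested genes. The libraries of the 2 groups did not overlap for 9 of 9 enzymes, which was also so for 68.9% of all tested genes.

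Values are given as normalized CPM, in which library totals were adjusted by TMM factors, and positions are those of the deposited table, whose build was not checked. Among the ring and side chain hydroxylases, Cyp8b1 (ENSMUSG00000050445, chromosome 9, 121743422 to 121745371), the enzyme on the way to cholic acid whose promoter is printed above, had 62.9 and 59.8 normalized CPM in soft culture and 27.3 and 23.9 in stiff culture. Both stiff libraries lay far below both soft libraries, and the means were 61.3 ± 2.19 and 25.6 ± 2.38 (SD, n = 2). The log2 fold change was -1.26 (standard error, SE, 0.080, adjusted p = 3.69e-10 from edgeR). The level fell by 58.2%. The level of Cyp8b1 relative to Cyp27a1 shifted as well. The ratio of normalized CPM per kilobase of gene length went from 0.463 and 0.429 in soft to 0.229 and 0.198 in stiff culture.

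Cyp7b1 (ENSMUSG00000039519, chromosome 3, 18126114 to 18297502), which hydroxylates oxysterols of the acidic pathway, was among the least abundant enzymes, with 6.39 and 6.61 normalized CPM in soft culture and 4.098 and 4.17 in stiff culture. The groups were separate, and the log2 fold change of -0.65 (SE 0.18, adjusted p = 0.00751 from edgeR) passed the test. Cyp27a1 (ENSMUSG00000026170, chromosome 1, 74752733 to 74777051), the mitochondrial sterol hydroxylase that opens the acidic pathway, had 151 and 155 normalized CPM in soft culture and 133 and 135 in stiff culture. This smaller difference, a log2 fold change of -0.20 (95% interval -0.29 to -0.10), had an adjusted p of 0.00262 in edgeR and stayed under the fold threshold.

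In the step that oxidises and reduces the ring, Akr1d1 (ENSMUSG00000038641, chromosome 6, 37507108 to 37545750), the reductase that sets the bent shape of the bile acid ring, had 12.9 and 11.3 normalized CPM in soft culture and 9.79 and 9.45 in stiff culture. The groups did not overlap, but the log2 fold change of -0.34 (95% interval -0.62 to -0.05) had an adjusted p of 0.0552 in edgeR and was not called. Hsd3b7 (ENSMUSG00000042289, chromosome 7, 127399776 to 127402974), the dehydrogenase of the same step, had 0 to 4 counts in every one of the 8 libraries. Its level cannot be read from this table. The annotated gene Gm49388 covers 100% of its span on the same strand, and 93.5% of the 64-base windows of its transcript also occur in that gene, which itself had 0 to 2 counts. The other 9 enzymes shared 0% of such windows with another gene. Cyp7a1, the first enzyme of the classic pathway, had 0 to 2 counts per library and was not tested either. Its level was thus near the counting floor in every library, and a difference between groups could not be read.

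The 4 side chain enzymes split. Acox2 (ENSMUSG00000021751, chromosome 14, 14210420 to 14244262), the peroxisomal oxidase for branched bile acid side chains, had 65.5 and 70.4 normalized CPM in soft culture and 41.2 and 38.2 in stiff culture. Its log2 fold change was -0.77 (SE 0.062, adjusted p = 1.06e-08 from edgeR), with the groups well apart. Hsd17b4 (ENSMUSG00000024507, chromosome 18, 50261268 to 50329336), the bifunctional enzyme that follows Acox2 in the peroxisome, had 189.6 and 192 normalized CPM in soft culture and 175 and 169 in stiff culture. The log2 fold change of -0.15 (95% interval -0.25 to -0.06, adjusted p = 0.0125 in edgeR) stayed under the fold threshold. The pseudogene Cd63-ps, with 796 to 1431 counts, lies inside Hsd17b4 on the same strand, and how reads there were assigned is not given in the sources used here.

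The remaining pair of side chain enzymes had slightly higher values on the stiff hydrogel. Slc27a5 (ENSMUSG00000030382, chromosome 7, 12722273 to 12732119), the bile acyl-CoA synthetase, had 343 and 361 normalized CPM in soft culture and 379 and 365 in stiff culture. Amacr (ENSMUSG00000022244, chromosome 15, 10981842 to 10996712), the racemase that turns the side chain into the form Acox2 accepts, had 23.7 and 26.8 in soft culture and 27.0 and 27.1 in stiff culture. Neither passed the test: the log2 fold change was 0.08 for Slc27a5 (95% interval -0.01 to 0.17, adjusted p = 0.145 from edgeR) and 0.11 for Amacr (95% interval -0.08 to 0.29, adjusted p = 0.352). These intervals leave room for a small rise and exclude a fall of the size seen for Acox2.

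Baat (ENSMUSG00000039653, chromosome 4, 49489422 to 49506557), the enzyme of the last step, showed the largest change of the 9 tested enzymes. It had 44.8 and 45.0 normalized CPM in soft culture and 17.98 and 17.02 in stiff culture. The log2 fold change was -1.36 (SE 0.084, adjusted p = 2.49e-10 from edgeR). The level fell by 61.0%. Baat was also compared with Slc27a5, the bile acyl-CoA synthetase. The ratio of Baat to Slc27a5 in normalized CPM per kilobase went from 0.164 and 0.157 in soft to 0.0595 and 0.0586 in stiff culture. The enzymes called lower thus lay at several steps of the pathway. Among the hydroxylases and the side chain enzymes others stayed under the fold threshold, and Baat was the only enzyme listed for its step. The sums of endothelial, Kupffer and stellate cell markers were also lower in wild-type cells in stiff culture. Single stellate markers went both ways: 6 of the 8 tested had lower and 2 higher values, with Col1a1 highest at a log2 fold change of 0.78. The cholangiocyte sum, mostly Spp1, was not lower. The sum of hepatocyte markers was not lower, although most of that sum is Alb. Of the 9 hepatocyte markers in the table, 3, Hnf4a among them, were called lower, where 9.26% of all tested genes were. The median log2 fold change of the 9 markers was -0.30. The part of all these markers in the falls was not tested.

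**Figure D1:**
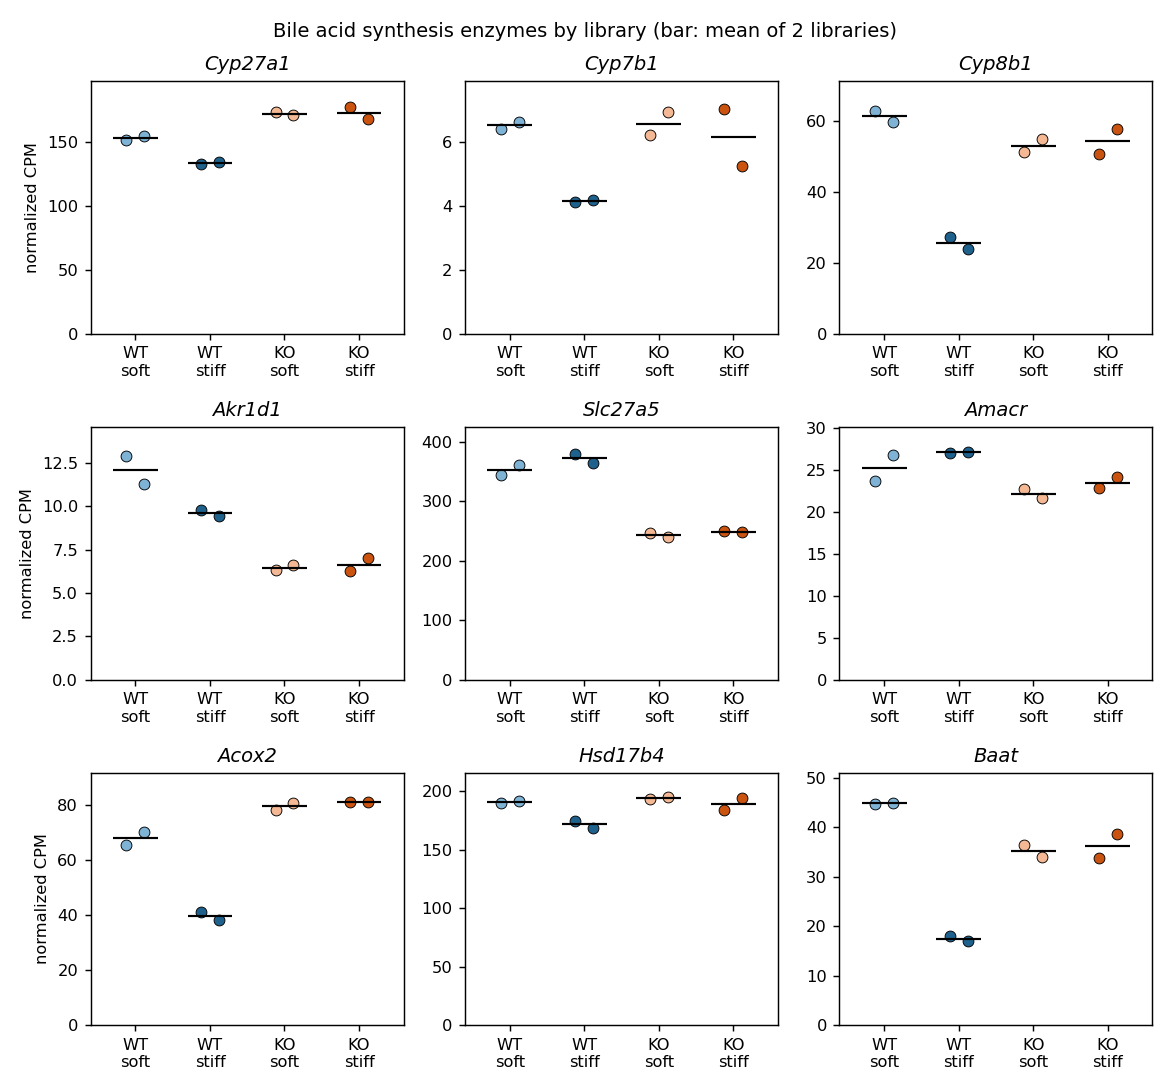
Normalized CPM (vertical axes, from 0) of the 9 tested enzymes in each of the 8 libraries, in the order of the pathway, with points for libraries and bars for the mean of 2 libraries per group (WT, wild type; KO, Yap/Taz knockout). In Cyp8b1, Acox2 and Baat, and more weakly in Cyp7b1, the wild-type stiff libraries stand below the other 3 groups, whereas Slc27a5 and Akr1d1 are lower in both knockout groups than in both wild-type groups.

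**Figure D2:**
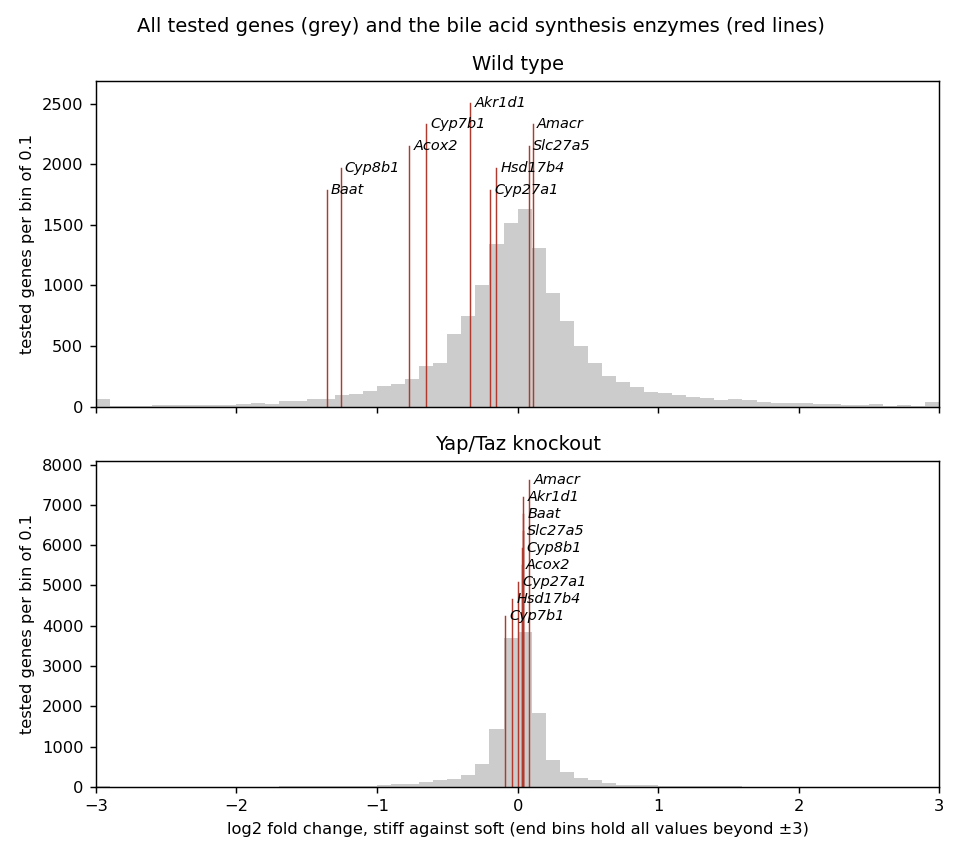
Distribution of log2 fold changes, stiff against soft, over the 14279 tested genes (grey, number of genes per bin on the vertical axis) in wild-type (top) and knockout cells (bottom), with a red line at each tested enzyme. In the wild type the enzymes reach from -1.36 (Baat) to 0.11 (Amacr), and in the knockout all 9 lie between -0.09 (Cyp7b1) and 0.08 (Amacr).

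The same comparison in Yap/Taz knockout hepatocytes gave small differences throughout. Cyp8b1 had 51.2 and 54.8 normalized CPM in soft culture and 50.8 and 57.8 in stiff culture, and Baat had 36.4 and 34.0 in soft culture and 33.9 and 38.6 in stiff culture. For both genes the soft libraries lay inside the range of the stiff ones. Acox2 had 78.3 and 80.8 normalized CPM in soft culture and 81.3 in each library in stiff culture. Its groups did not overlap, but they were 2.20% apart on the fitted scale. Cyp7b1 was the most scattered, with 6.21 and 6.91 in soft culture and 7.03 and 5.24 in stiff culture.

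By edgeR, 0 of 9 enzymes were called on the stiff against the soft hydrogel in knockout cells, where 0.021% of all tested genes (3 genes) were called and 1077 genes had an unadjusted p under 0.05. None of the 9 enzymes had an adjusted p below 0.84, and DESeq2 also called 0. The log2 fold changes lay between -0.09 (Cyp7b1, 95% interval -0.45 to 0.27) and 0.08 (Amacr, 95% interval -0.10 to 0.27). The intervals were -0.12 to 0.19 for Cyp8b1, -0.12 to 0.20 for Baat and -0.09 to 0.15 for Acox2, so a fall of the size seen in wild-type cells lay outside each of them. For Akr1d1 the interval was -0.27 to 0.35, so a modest change was not excluded. The wild-type value of -0.34 lay just below it, but the wild-type interval of -0.62 to -0.05 overlapped it. The groups did not overlap for 3 of 9 enzymes, and for 38.2% of all tested genes.

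Whether the stiffness effect itself differed between genotypes was tested as an interaction, the knockout effect minus the wild-type effect. It was called for 3 of 9 enzymes, all 3 higher, where 8.64% of all tested genes were called higher, 8.21% lower and 16.8% in either direction. The difference was 1.40 for Baat (95% interval 1.16 to 1.64, adjusted p = 3.05e-08 from edgeR), 1.29 for Cyp8b1 (95% interval 1.07 to 1.52, adjusted p = 4.36e-08) and 0.80 for Acox2 (95% interval 0.63 to 0.98, adjusted p = 7.76e-07). For these 3 enzymes the response to the stiff hydrogel was thus different in cells with and without Yap and Taz. Cyp27a1 had a difference of 0.20 with an adjusted p of 0.0286 in edgeR and stayed under the fold threshold. With it, 4 of 9 enzymes passed the adjusted p alone, as did 29.4% of all tested genes in either direction.

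Cyp7b1, which was called in the wild-type comparison, had an interaction of 0.56 (95% interval 0.03 to 1.09) with an adjusted p of 0.104 from edgeR, so a difference between genotypes was not established for it. Without replicate 2 of the knockout stiff group, the lower of the 2 values in that group, the interaction was 0.75 with an adjusted p of 0.0358 and was called. The differences were 0.38 for Akr1d1 (adjusted p = 0.177 from edgeR) and 0.11 for Hsd17b4 (adjusted p = 0.207). They were -0.03 for Amacr (95% interval -0.29 to 0.24) and -0.04 for Slc27a5 (95% interval -0.17 to 0.08).

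**Figure D3:**
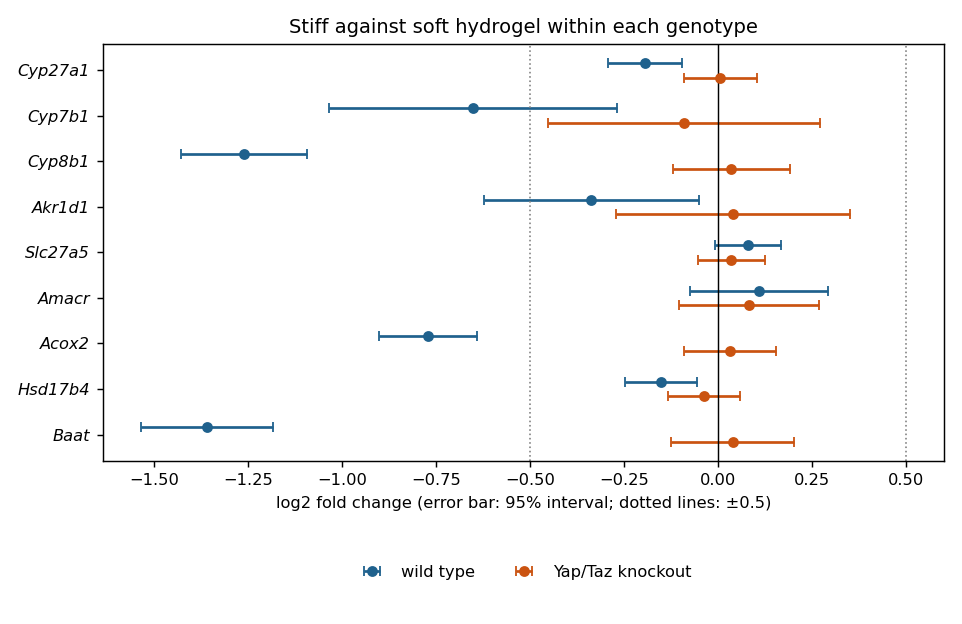
Log2 fold change of stiff against soft (horizontal axis) for the 9 tested enzymes in wild-type and in knockout cells, with 95% intervals from edgeR's fit and dotted lines at ±0.5. The wild-type and knockout intervals are far apart for Baat, Cyp8b1 and Acox2 and overlap for Slc27a5 and Amacr.

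A second question was what the loss of Yap and Taz did on each hydrogel. On the soft hydrogel the enzymes called were Akr1d1 and Slc27a5, both lower in the knockout. Akr1d1 had 6.32 and 6.61 normalized CPM in knockout cells against 12.9 and 11.3 in wild-type cells, a log2 fold change of -0.91 (SE 0.14, adjusted p = 9.82e-05 from edgeR). It fell by 46.8%. Slc27a5 had 246 and 239 normalized CPM in knockout cells against 343 and 361 in wild-type cells, a log2 fold change of -0.54 (SE 0.042, adjusted p = 2.82e-08 from edgeR). Both genes had every knockout library below every wild-type library. Together they made 2 of 9 enzymes called lower and 0 called higher, where 4.65% of all tested genes were called lower. Slc27a5 lay close to the fold threshold, with -0.48 when only library size was used for scaling and -0.499 without replicate 2 of the wild-type soft group, and was not called in either case.

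Another 3 enzymes passed the adjusted p on the soft hydrogel without reaching the fold threshold, so that 5 of 9 passed it in all, where 18.4% of all tested genes did. The knockout value was lower for Baat, with a log2 fold change of -0.35 (adjusted p = 0.00298 from edgeR), and higher for Acox2 at 0.23 (adjusted p = 0.00882) and Cyp27a1 at 0.17 (adjusted p = 0.0143). Cyp8b1, at -0.21, had an adjusted p of 0.0517 and Amacr, at -0.18, one of 0.179. Cyp7b1 (0.01, 95% interval -0.35 to 0.37) and Hsd17b4 (0.02, 95% interval -0.07 to 0.12) had the smallest differences of the 9.

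On the stiff hydrogel 6 of 9 enzymes were called, 4 higher and 2 lower in the knockout, where 13.7% of all tested genes were called higher and 15% lower. The wild-type stiff libraries enter this comparison, the wild-type stiffness comparison and the interaction, so the values are set side by side and are not separate evidence. Cyp8b1 had 50.8 and 57.8 normalized CPM in knockout against 27.3 and 23.9 in wild-type cells, a log2 fold change of 1.08 (adjusted p = 1.99e-09 from edgeR). Baat had 33.9 and 38.6 against 17.98 and 17.02, a log2 fold change of 1.05 (adjusted p = 6.73e-09). Acox2 had 81.3 in each knockout library against 41.2 and 38.2, a log2 fold change of 1.03 (adjusted p = 8.43e-11). These 3 enzymes were about 1 log2 unit higher in the knockout on the stiff hydrogel, while on the soft hydrogel none of them was called. Cyp7b1 had 7.03 and 5.24 against 4.098 and 4.17, a log2 fold change of 0.57 (SE 0.18, adjusted p = 0.0142 from edgeR). That call rested on single libraries: without replicate 1 of the knockout stiff group the log2 fold change was 0.34 (adjusted p = 0.222), and without either wild-type stiff library the adjusted p was 0.0748 or 0.0592.

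The enzymes lower in the knockout on the soft hydrogel were also the ones called lower on the stiff hydrogel. Slc27a5 had 249 and 248 normalized CPM in knockout against 379 and 365 in wild-type cells, a log2 fold change of -0.58 (SE 0.042, adjusted p = 1.57e-09 from edgeR). Akr1d1 had 6.28 and 7.02 against 9.79 and 9.45, a log2 fold change of -0.53 (SE 0.14, adjusted p = 0.00469 from edgeR). The Akr1d1 value was -0.46 without replicate 1 of the knockout stiff group and -0.48 with library size as the only scaling, and was not called then. For both genes the difference between the knockout hydrogel groups was 0.04, and neither passed the test (95% interval -0.27 to 0.35 for Akr1d1 and -0.05 to 0.12 for Slc27a5). Cyp27a1 was 0.37 higher in the knockout (adjusted p = 2.57e-06 from edgeR) and Hsd17b4 0.14 higher (adjusted p = 0.0171), both under the fold threshold, and Amacr was at -0.21 (adjusted p = 0.0587). The sums of endothelial, Kupffer and stellate cell markers were higher in the knockout on both hydrogels (values above), and the cholangiocyte sum, mostly Spp1, was lower on both. On the stiff hydrogel 1 of the 8 tested stellate markers went the other way, Col1a1 at -0.62. The hepatocyte marker sum, mostly Alb, was lower on both, but single markers went both ways. On the soft hydrogel 0 of 9 were called higher and 2 lower (median -0.13), beside 2.02% and 4.65% of all tested genes. On the stiff hydrogel 2 were called higher and 2 lower (median 0.098), beside 13.7% and 15% of all tested genes. The part of these markers in the differences was not tested.

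**Figure D4:**
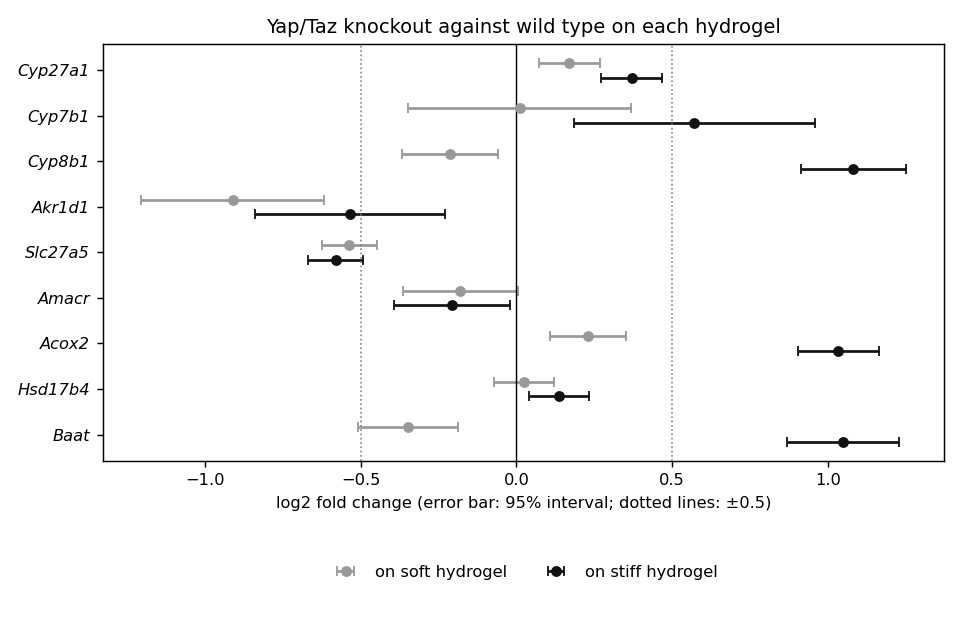
Log2 fold change of knockout against wild type (horizontal axis) for the 9 tested enzymes on both hydrogels, with 95% intervals from edgeR's fit and dotted lines at ±0.5. Slc27a5 and Akr1d1 are below 0 on both hydrogels, and Cyp8b1, Baat and Acox2 are near 1 on the stiff hydrogel only, with values of -0.21, -0.35 and 0.23 on the soft hydrogel.

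Levels of different genes were compared per length, as normalized CPM per kilobase of the gene length in the table. In wild-type soft cells Slc27a5 was highest at 144 ± 5.26 (SD, n = 2). Cyp27a1 followed at 70.5, Hsd17b4 at 56.1, Cyp8b1 at 31.4, Baat at 23.1, Acox2 at 18.3, Amacr at 9.68, Akr1d1 at 4.19 and Cyp7b1 at 3.002. No neighbours in this order overlapped between libraries, and the level of Slc27a5 was far above those of Amacr and Baat. On the wild-type stiff hydrogel the first 4 places were the same. Cyp8b1 had dropped to 13.1, Acox2 and Amacr, at 10.7 and 10.4, overlapped, and Baat, at 9.02, had moved from above Acox2 to below Amacr.

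In knockout cells the top of the range was narrower. Slc27a5 stood at 99.6 in soft culture and 102 in stiff culture, and Cyp27a1 at 79.3 and 79.6. The share of Slc27a5 in the summed level per kilobase of the 9 enzymes was 39.6% and 40.5% for wild-type soft, 48.9% and 48.6% for wild-type stiff, 31.8% and 31.1% for knockout soft and 32.2% and 31.6% for knockout stiff libraries. Baat, at 18.1 and 18.7, stayed above Amacr, at 8.50 and 9.01, in both knockout groups. At the low end Cyp7b1 was above Akr1d1, the reverse of the wild-type order, with 3.03 against 2.24 on the soft hydrogel and 2.83 against 2.30 on the stiff hydrogel, where the libraries of the 2 genes overlapped. A count table does not say how much enzyme or bile acid was made.

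**Figure D5:**
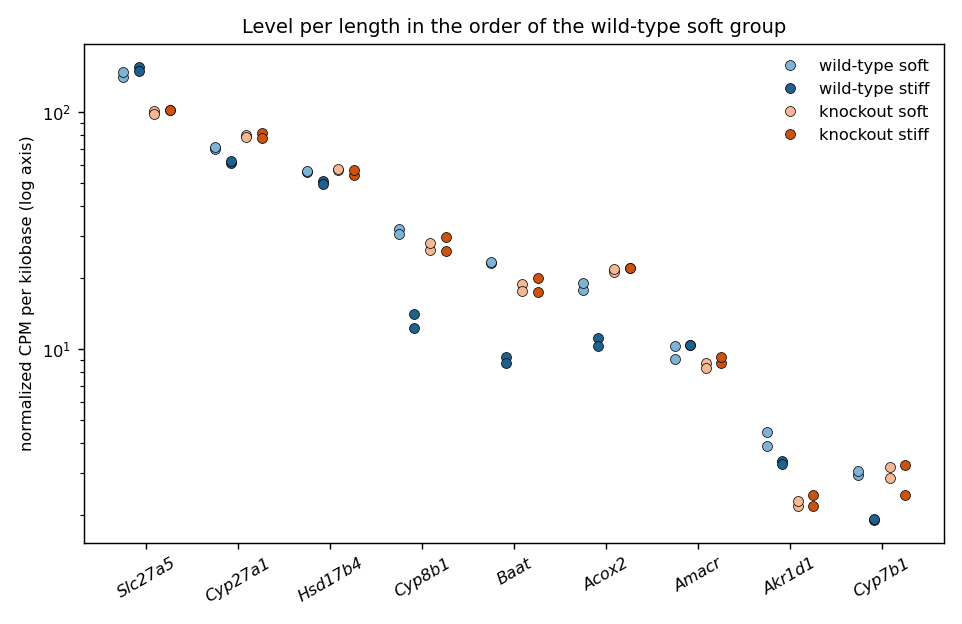
Normalized CPM per kilobase (logarithmic vertical axis) of the 9 tested enzymes, sorted by their level in wild-type soft cells, with 1 point per library coloured by group. Slc27a5 has the highest level in each group, and the wild-type stiff points of Cyp8b1, Baat and Acox2 lie below those of the other groups.

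Genes around the 10 enzymes were described from lists of the same pathway. Of 11 other bile acid synthesis enzymes, 9 were tested, and in wild-type cells 2 were called lower and 0 higher on the stiff hydrogel, with a list median of -0.18, where 9.26% of all tested genes were called lower. Both act on the side chain in peroxisomes or at the very-long-chain acyl-CoA step. Scp2, the sterol carrier protein with the thiolase of side chain shortening, had 974 and 919 normalized CPM in soft culture and 532 and 550.5 in stiff culture, a log2 fold change of -0.81 (adjusted p = 1.42e-11 from edgeR). Slc27a2, an acyl-CoA synthetase of the same family as Slc27a5, had 183 and 191 in soft culture and 97.4 and 91.4 in stiff culture, a log2 fold change of -0.99 (adjusted p = 1.78e-11). Slc27a2 fell while its relative Slc27a5 did not pass the test.

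Among 11 tested enzymes of other peroxisomal oxidation, 2 were called lower in wild-type cells and 0 higher, with a median of -0.32, against the same 9.26% of all tested genes. The thiolase Acaa1b had 126 and 125 normalized CPM in soft culture and 58.6 and 63.8 in stiff culture, a log2 fold change of -1.04 (adjusted p = 3.53e-11 from edgeR) and the carnitine octanoyltransferase Crot was at -0.95 (adjusted p = 1.22e-11). Of 14 genes for peroxisome import and biogenesis, 0 were called, from -0.44 (Pex16, adjusted p = 0.00132 in edgeR) to 0.06 (Pex10), with a median of -0.22, and 7 of the 14 passed the adjusted p alone, all 7 lower, as did 20% of all tested genes. Of 8 electron donors and sterol carriers, 0 were called, where 9.26% of all tested genes were called lower. Their log2 fold changes ran from -0.58 (Star, adjusted p = 0.114 from edgeR) to 0.14 (Stard4, adjusted p = 0.0507). Star had only 32 to 65 counts per library, and its soft libraries were apart, at 2.27 and 3.61 normalized CPM. By the adjusted p alone 3 of the 8 passed, all 3 lower, as did 20% of all tested genes.

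Of 16 tested regulators of bile acid synthesis, 5 were called lower in wild-type cells and 0 higher, with a median of -0.20, again beside 9.26% of all tested genes. Hnf4a, the nuclear receptor whose motif stands in capitals in the Cyp8b1 promoter above, had 379 and 365 normalized CPM in soft culture and 186 and 193 in stiff culture, a log2 fold change of -0.98 (adjusted p = 2.44e-12 from edgeR). Prox1, a corepressor of Hnf4a and LRH-1, had 48.0 and 44.4 in soft culture and 23.5 and 22.2 in stiff culture, a log2 fold change of -1.02 (adjusted p = 2.33e-09). An activator and a corepressor of bile acid genes thus both fell. Fgfr4, the receptor that represses bile acid synthesis, was at -0.75 (adjusted p = 4.27e-05 from edgeR), and its coreceptor Klb was at -1.09 (adjusted p = 0.000531). Ppara, a nuclear receptor of peroxisomal and bile acid genes, was at -0.61 (adjusted p = 0.00937 from edgeR).

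In knockout cells 0 genes of these 5 lists were called on the stiff against the soft hydrogel, where 0.021% of all tested genes were. The interaction was called higher for 2 of 9 other bile acid enzymes, 2 of 11 peroxisomal oxidation enzymes, 5 of 16 regulators, 1 of 14 import genes and 0 of 8 electron donors and carriers, and lower for 0 in each list, beside 8.64% and 8.21% of all tested genes. For Hnf4a, which had 426 and 421 normalized CPM in soft culture and 414 and 437 in stiff culture in knockout cells, the interaction was 0.98 (adjusted p = 5.29e-10 from edgeR).

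Between genotypes the surrounding genes went both ways. On the soft hydrogel 2 of 9 other bile acid enzymes were called lower in the knockout (4.65% of all tested genes), and on the stiff hydrogel 1 was called lower and 1 higher (15% and 13.7% of all tested genes). Slc27a2 was at -0.55 in the knockout on the soft hydrogel (adjusted p = 1.51e-07 from edgeR), beside -0.54 for Slc27a5. Scp2 was 0.99 higher in the knockout on the stiff hydrogel (adjusted p = 3.56e-13 from edgeR), beside 1.03 for Acox2, with the same wild-type libraries behind both. Among the regulators 1 of 16 was called higher on the soft hydrogel, where 2.02% of all tested genes were, and 6 of 16 on the stiff hydrogel, where 13.7% were, with 0 lower on either. Klb, the one called on the soft hydrogel, had 9.91 and 8.26 normalized CPM in knockout against 4.81 and 4.44 in wild-type cells, a log2 fold change of 0.97 (adjusted p = 0.000707 from edgeR). On the stiff hydrogel Hnf4a was 1.17 higher (adjusted p = 7.52e-14 from edgeR).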

How the data were processed

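RNA sequencing was performed on 8 libraries of mouse primary hepatocytes. Paired-end reads had been mapped by the authors using HISAT2 2.0.5 and assigned to genes using featureCounts, and the deposited values are raw counts per gene. The submitters' processing notes list mm9, which could not be compared here, and 9 of the 10 enzymes had positions that differ from GENCODE M21 on GRCm38. Positions are therefore printed as the table gives them. Settings for strand and reads matching several genes are not given in the sources used here. Acox2 is on the other strand in RefSeq than in the table.

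Differential expression was tested using edgeR 4.0.16, with limma 3.58.1, under R 4.3.3. Genes were filtered with filterByExpr by group, scaled by TMM (factors 0.978 to 1.02) and fitted with glmQLFit for all 8 libraries, with 4 residual degrees of freedom and a common biological coefficient of variation of 0.0542. Each comparison used glmQLFTest with Benjamini-Hochberg adjustment over 14279 genes. Normalized CPM is a count scaled, as by the cpm function of edgeR, to the library total over tested genes times its TMM factor, and marker sums use the raw total. Standard errors and 95% intervals come from the fit. DESeq2 1.42.0, other scalings, filters and fold thresholds, a replicate block, the 4 libraries of a comparison alone and each library left out served as alternatives. Plots were made in Python 3.11.15 using matplotlib 3.10.9.

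The promoter sequence and its position are from RefSeq. The enzymes and lists were chosen with earlier results of these data known. A gene of one list is not reported here. The text names the 10 enzymes, Cyp7a1, Yap1, Wwtr1 and, from each of the 5 pathway lists, the genes called in wild-type stiff against soft or, where fewer than 2 were called, the lowest and highest. Alb, Spp1, Krt19, Col1a1, Lrat, Cftr, Nr5a2, Nr1h4 and the genes overlapping an enzyme were named after their values were seen.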

Additional observations from a re-analysis of the deposited data

Results flagged for a closer look

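The effect of stiffness differed between genotypes, by the test of the difference itself, for 4 of the 9 tested enzymes at an adjusted p under 0.05, as it did for 29.4% of all tested genes. The knockout effect minus the wild-type effect on the log2 scale was 1.29 for Cyp8b1 (adjusted p = 4.36e-08 from edgeR), 1.40 for Baat (adjusted p = 3.05e-08), 0.80 for Acox2 (adjusted p = 7.76e-07) and 0.20 for Cyp27a1 (adjusted p = 0.0286). The last is small, at 0.20, and under the fold threshold of 0.5.

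Among the surrounding genes named, the same difference was 0.76 for Scp2 (adjusted p = 9.37e-09 from edgeR), 1.03 for Slc27a2 (adjusted p = 2.61e-09), 1.08 for Acaa1b (adjusted p = 5.52e-09) and 0.87 for Crot (adjusted p = 9.17e-09). Among the regulators it was 0.98 for Hnf4a (adjusted p = 5.29e-10 from edgeR), 1.02 for Prox1 (adjusted p = 2.76e-07), 0.85 for Fgfr4 (adjusted p = 0.000426), 0.80 for Klb (adjusted p = 0.0386) and 0.74 for Ppara (adjusted p = 0.0274). These 9 genes were named because they were called lower in wild-type stiff against soft, and the difference subtracts that same wild-type effect, so their positive sign follows from how they were chosen and is no separate evidence.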

How the results depend on the processing

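Of 666 enzyme fold changes recomputed under the 15 alternatives that keep the fold threshold of 0.5, 638 kept their direction and side of the threshold, 7 lost a call, 1 gained one and 20, none called, changed sign. Enzymes called numbered 4 in wild-type stiff against soft (2 with a log2 threshold of 1, 6 with no minimum fold, 4 with any library left out), 0 in the knockout under each alternative, 3 in the interaction (2 with the threshold of 1, 4 with no minimum fold, 3 to 4 with a library left out), 2 for knockout against wild type on soft (0 with the threshold of 1, 1 with library size only, 5 with no minimum fold, 1 to 2 with a library left out) and 6 on stiff (3 with the threshold of 1, 8 with no minimum fold, 4 to 6 with a library left out). Over all genes, counts were 2754 in wild-type cells (1244 with the threshold of 1, 5859 with no minimum), 2405 in the interaction (1040 and 4192), 952 on soft (353 and 2624) and 4103 on stiff (2097 and 7299). The count of 3 in the knockout became 9 with its 4 libraries alone, 1 with the threshold of 1, 50 with no filter and 1 to 8 with a library left out.

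The changes of sign were all near 0. In knockout stiff against soft, Cyp27a1 was at -0.0034 with 4 libraries alone, -0.00037 with at least 10 counts in every library, -0.0075 with no filter and -0.037 to 0.035 with a library left out. With a library left out, the range was -0.050 to 0.12 for Akr1d1, -0.066 to 0.13 for Baat, -0.068 to 0.12 for Cyp8b1 and -0.32 to 0.095 for Cyp7b1. For knockout against wild type on soft it was -0.068 to 0.089 for Cyp7b1, and for the interaction -0.12 to 0.050 for Amacr. The cause was not tested.

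Libraries with the same replicate number did not deviate together over all tested genes (correlations from -0.101 to 0.0424), so no pairing was seen. Counting noise lowers such correlations, so they cannot settle whether libraries of the same number shared a mouse or culture. A replicate block gave 2705 genes in wild-type cells, 3 in the knockout, 2330 in the interaction, 895 on soft and 4071 on stiff, and changed no count of enzymes called. With 2 libraries per group, a fit without 1 of them assumes that the lone library varies like the other groups. Scaling moved the median of all genes by less than 0.1. Cyp7b1, at 4 to 7 normalized CPM, and Akr1d1 had the widest intervals of the enzymes. Hsd3b7 and Cyp7a1 had too few counts to be tested, and Hsd3b7 also shares its span with Gm49388.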
